A study of Rattus norvegicus with 12 samples.

Results

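Casp1, Casp4, Casp6, Casp8, Casp9, Casp12, Gsdmd and Nlrp3 are the caspase and inflammasome genes described here. They were chosen by symbol, as 8 of the 34034 gene symbols in the count table. The 5 inflammatory members are the caspases Casp1, Casp4 and Casp12, the pore-forming protein gene Gsdmd and the sensor gene Nlrp3, and the 3 apoptotic members are Casp6, Casp8 and Casp9. Bulk RNA-seq of polyadenylated RNA was measured in INS-1E cells, an established β-cell line from a rat insulinoma that releases insulin. All groups were of the same line with the wild-type genotype label, in 4 groups of 3 libraries labelled as biological replicates. Untreated cells received no cytokine. IL-1βlow cells were kept for 72 h with IL-1β at 10 pg/ml, CYT cells received 100 pg/ml of IL-1β with 5 ng/ml of IFN-γ for 16 h, and IL-1βlow + CYT cells received the low dose first and then the same challenge. INS-1E cells are a tumour line grown without the other cell types of an islet, so the groups describe the line and not the tissue.

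Caspases are cysteine proteases that are made as inactive precursors and cut their targets after aspartate. In the inflammasome, a sensor such as Nlrp3 assembles with the adaptor Pycard (ASC) on caspase-1, which processes the precursors of IL-1β and IL-18 and cuts gasdermin D, the product of Gsdmd, into a membrane pore. The product of rodent Casp4, also called caspase-11, binds bacterial lipopolysaccharide inside the cell and cuts gasdermin D without that sensor. Apoptosis runs through other family members: caspase-8 starts it at death receptors, caspase-9 starts it on the Apaf1 apoptosome once cytochrome c has left mitochondria, and executioners such as caspase-6 cut cell proteins.

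Casp1, Casp4 and Casp12 lie next to each other as consecutive protein-coding genes on chromosome 8 of the rat, between Gria4 and Pdgfd, in the RefSeq annotation of the assembly GRCr8. Promoters from RefSeq on the same assembly, each 250 bases before and 50 bases after a gene's start, were matched for 5 of the 8 members, Casp1, Casp12, Nlrp3, Casp6 and Casp9. They are shown because the challenge contains IFN-γ, whose signalling uses interferon regulatory factors, and because the neighbours Casp1 and Casp12 have in common a stretch that holds such a motif. The 3 motifs searched on both strands were an IRF motif (GAAANNGAAA), a GAS motif (TTCNNNGAA) and the κB consensus, and capitals mark the bases that matched. In these promoters no match of a motif overlapped a match of another.
Casp1 (chr8:10872580-10872879, plus strand): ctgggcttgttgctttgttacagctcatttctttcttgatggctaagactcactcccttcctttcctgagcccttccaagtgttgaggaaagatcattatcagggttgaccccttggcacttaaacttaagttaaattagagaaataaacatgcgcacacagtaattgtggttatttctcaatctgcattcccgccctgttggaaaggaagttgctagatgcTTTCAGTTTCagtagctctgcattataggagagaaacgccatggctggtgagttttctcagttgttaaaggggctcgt
Casp12 (chr8:10926938-10927237, plus strand): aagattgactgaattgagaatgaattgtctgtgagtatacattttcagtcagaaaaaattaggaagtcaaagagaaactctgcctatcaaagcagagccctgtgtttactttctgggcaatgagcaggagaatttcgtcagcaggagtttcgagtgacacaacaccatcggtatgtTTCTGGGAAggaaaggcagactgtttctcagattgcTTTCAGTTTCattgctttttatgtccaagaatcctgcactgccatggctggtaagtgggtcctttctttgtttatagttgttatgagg
Nlrp3 (chr10:44827848-44828147, plus strand): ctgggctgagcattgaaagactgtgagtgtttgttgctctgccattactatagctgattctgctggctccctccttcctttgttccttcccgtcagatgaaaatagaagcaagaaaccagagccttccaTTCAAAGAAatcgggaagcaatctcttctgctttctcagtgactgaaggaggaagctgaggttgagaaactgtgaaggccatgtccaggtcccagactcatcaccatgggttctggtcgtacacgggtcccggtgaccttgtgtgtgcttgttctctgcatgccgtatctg
Casp6 (chr2:221140136-221140435, plus strand): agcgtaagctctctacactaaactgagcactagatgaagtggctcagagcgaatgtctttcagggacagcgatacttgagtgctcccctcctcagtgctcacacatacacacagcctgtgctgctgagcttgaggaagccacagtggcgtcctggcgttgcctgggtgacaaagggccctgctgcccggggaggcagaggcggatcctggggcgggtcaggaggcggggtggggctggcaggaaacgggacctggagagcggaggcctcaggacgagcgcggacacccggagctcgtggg

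The IRF motif stood at bases -28 to -19 from the start of Casp1 and at -38 to -29 of Casp12, in both on the minus strand, so that the printed strand reads TTTCAGTTTC. These matches lay within a run of 14 bases, tgctttcagtttca, that the promoters of Casp1 and Casp12 share. The GAS motif matched at -74 to -66 of Casp12 and at -121 to -113 of Nlrp3. Of 33469 rat promoters of the same length, 3.92% held the IRF motif, 8.87% the GAS motif and 4.18% the κB consensus, which matched in none of the 5 promoters. The promoters of Casp6 and Casp9 held none of these letters and were richer in G and C (63.0% and 72.0%) than those of Casp1 (43.3%), Casp12 (41.0%) and Nlrp3 (49.7%), with a median of 51.7% over all promoters. A match is a description of letters and not a site of binding, which was not measured. Casp1 and Casp12, whose promoters held the IRF motif, had 0 and 2 counts over all libraries. For Casp4 and Gsdmd, the members that rose under CYT, no promoter was matched.

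Total counts ran from 15812640 to 20246806 per library. A gene with no count in a library could have held up to 3 counts, or 0.149 to 0.185 CPM, and such limits and every counting interval cover counting error only. Levels are given as TMM-normalized CPM, counts divided by the library's total and scaled by edgeR's trimmed mean of M-values, which compares groups within a gene and not genes with each other. Of the 8 members, 6 had more than 1 CPM in at least 2 libraries and were among the 14324 genes tested, while Casp1 and Casp12 did not reach this level and were not tested. The tests measure the spread between the libraries of a group. Fold changes come from the quasi-likelihood test of edgeR, p-values were adjusted after Benjamini-Hochberg over every tested gene, and a gene passed when the adjusted p was under 0.01 and the log2 fold change exceeded 1 in size, or 0.6 for IL-1βlow against untreated cells. The summed level of 8 β-cell markers was between 43260 and 50150 CPM in untreated cells, 38610 and 45170 CPM in IL-1βlow cells, 14010 and 14910 CPM under CYT and 20420 and 25770 CPM in IL-1βlow + CYT cells. As for other cells, 3 of 7 myeloid and lymphoid markers (Ptprc, Itgam, Lyz2) had at most 3 counts in every library. Another 3 (Adgre1, Cd68, Csf1r) passed the filter on low counts, and Adgre1 was higher with the challenge, as given below. In bulk RNA, fewer cells that express a gene and less of its RNA in each cell cannot be told apart.

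The CYT challenge changed 3 of the 5 inflammatory members and left every apoptotic member short of the thresholds. Casp4 and Gsdmd rose and Nlrp3 fell against untreated cells. Preconditioning with IL-1βlow before the challenge gave a lower level of Casp4 and a higher level of Nlrp3 than CYT alone. Casp6 was also higher, but only just over the fold minimum, and several alternatives given below ended its call. In numbers, 3 of the 6 tested members passed in CYT against untreated cells, where 21.6% of all tested genes passed (10.0% higher and 11.6% lower). In IL-1βlow + CYT against CYT cells 3 members passed, beside 12.5% of all genes (6.54% higher and 5.92% lower). In IL-1βlow + CYT against untreated cells 2 members passed, Casp4 and Gsdmd, beside 5.99% of all genes. Casp4 was tested only through challenged libraries and Nlrp3 only through groups other than CYT. Part of these counts was thus built into which members were tested. Under IL-1βlow alone 0 members passed, beside 0.433% of all genes, and 0 did so with DESeq2 or exactTest. An unadjusted p under 0.05 was found for 0 members and for 1982 of the 14324 tested genes. These comparisons share libraries with each other, so their values are given side by side and are not independent of each other.

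Casp4 was nearly silent without the challenge. Its counts were 1, 0 and 2 in the untreated libraries and 0, 1 and 0 in the IL-1βlow libraries, and the levels there were at most 0.122 CPM. Under CYT it reached 7.39, 7.05 and 8.18 CPM, from 136, 121 and 160 counts. In IL-1βlow + CYT cells it stood at 1.16, 1.09 and 2.79 CPM, from 19, 22 and 47 counts. The 6 challenged libraries were all above the 6 others, and the highest preconditioned library stayed below the lowest CYT library. Only through these 6 libraries did Casp4 enter the test, so a difference from the unchallenged groups was built into its being tested, and it had the same calls when all genes with a count were tested. Against untreated cells Casp4 rose by a log2 fold change of 6.83 under CYT (SE 0.55, adjusted p = 1.1e-07) and of 4.66 in IL-1βlow + CYT cells (SE 0.65, adjusted p = 9.3e-05). These fitted folds rest on 3 untreated counts. The summed counts give a ratio of 128 for CYT over untreated cells, with an exact 95% interval from 43.5 to 624, and of 27.9 for IL-1βlow + CYT over untreated cells, from 9.24 to 138. Between the challenged groups Casp4 was lower with preconditioning by -2.17 on the log2 scale (SE 0.34, adjusted p = 1.1e-04), and the counts of CYT cells were 4.59 times those of preconditioned cells (interval 3.64 to 5.84). IL-1βlow + CYT replicate 3 was the highest of its group, and without it the log2 difference was -2.74. The order of the levels was CYT, then IL-1βlow + CYT, then untreated and IL-1βlow cells, whose values overlapped.

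The neighbours of Casp4 stayed at or next to 0 counts with and without the challenge. Casp1, which encodes the caspase of the classical inflammasome, had 0 counts in all 12 libraries. Casp12, an inflammatory caspase by sequence that has also been linked to the endoplasmic reticulum, had 1 count in CYT replicate 3, 1 count in IL-1βlow + CYT replicate 1 and none elsewhere. Both stayed under the limit of 3 counts per library in every group, and no fold was computed. Casp1 overlaps a long non-coding RNA gene in GRCr8, and the part of annotation and read assignment in its 0 counts was not tested. How reads that match more than 1 of these related neighbours were counted is not given in the sources used here.

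**Figure D1:**
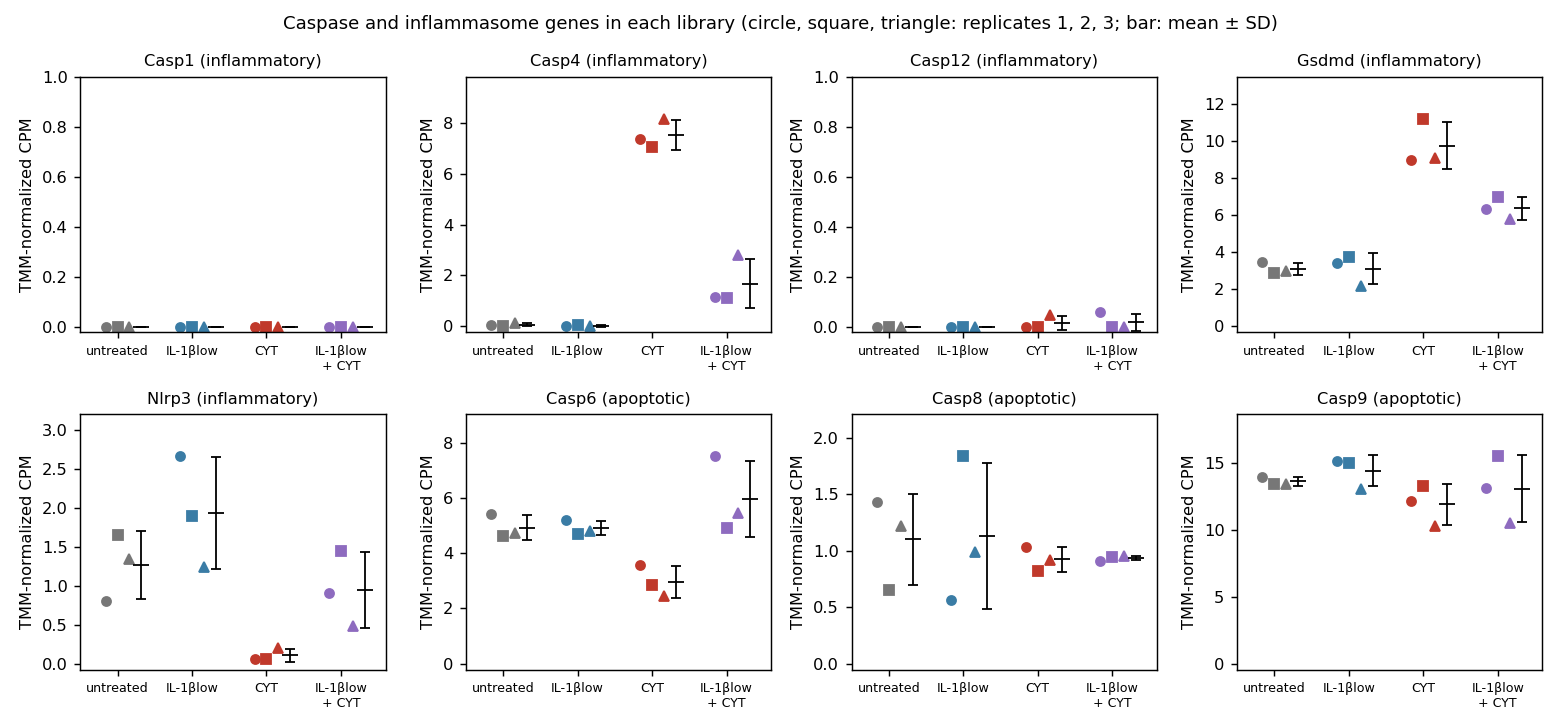
Level of each member in each of the 12 libraries as TMM-normalized CPM, on a linear axis from 0 that differs between panels, with the mean ± SD of the 3 libraries of a group. Casp1 and Casp12 lie on or near 0, Casp4 is high in CYT cells (7.05 to 8.18 CPM), and Nlrp3 is lowest there (at most 0.205 CPM).

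Gsdmd was counted in every library. It stood at 3.44, 2.84 and 2.98 CPM in untreated cells, 3.38, 3.74 and 2.16 CPM in IL-1βlow cells, 8.97, 11.2 and 9.05 CPM in CYT cells and 6.32, 6.96 and 5.77 CPM in IL-1βlow + CYT cells. All CYT libraries lay above all preconditioned and challenged libraries, and these lay above the 6 unchallenged libraries, which overlapped. Gsdmd rose by 1.65 on the log2 scale under CYT (SE 0.20, adjusted p = 5.7e-06), a fold of 3.15. In IL-1βlow + CYT cells it rose by 1.04 over untreated cells (SE 0.20, adjusted p = 0.0015), close to the minimum of 1, and by 0.97 without untreated replicate 2 or without IL-1βlow + CYT replicate 2, which ended the call. The difference between the challenged groups, -0.61 (95% interval -1.01 to -0.22, adjusted p = 0.013), did not pass.

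Nlrp3 went the other way from the caspase and the pore protein. It stood at 0.802, 1.66 and 1.34 CPM in untreated cells (14, 28 and 22 counts) and at 2.67, 1.90 and 1.23 CPM in IL-1βlow cells (52, 31 and 20 counts). Under CYT it fell to 0.0543, 0.0583 and 0.205 CPM, from 1, 1 and 4 counts. In IL-1βlow + CYT cells it stood at 0.912, 1.44 and 0.476 CPM, from 15, 29 and 8 counts. All 3 CYT libraries were below every other library, and the remaining groups overlapped. Nlrp3 exceeded 1 CPM in 2 untreated, 3 IL-1βlow, 1 IL-1βlow + CYT and 0 CYT libraries, so it was tested only through groups other than CYT, and it had the same calls between pairs of groups when all genes with a count were tested. Nlrp3 fell by 3.46 on the log2 scale under CYT (SE 0.63, adjusted p = 2.7e-04), and the untreated counts were 11.6 times the CYT counts, with an exact interval from 5.04 to 32.7. With preconditioning it was higher than under CYT alone by 3.06 (SE 0.65, adjusted p = 0.0013), a ratio of counts of 8.95 from 3.85 to 25.5. CYT replicate 3 held 4 of the 6 CYT counts, and without it these log2 values were -4.3 and 3.9. Against untreated cells the preconditioned and challenged cells gave -0.40 (95% interval -1.34 to 0.55, adjusted p = 0.56), and IL-1βlow alone gave 0.62 (interval -0.26 to 1.51, adjusted p = 0.49). Nlrp3 overlaps a long non-coding RNA gene in GRCr8, and the strand setting of the counting is not given in the sources used here.

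Among the apoptotic members, only the executioner gene Casp6 passed in a comparison. It stood at 5.44, 4.62 and 4.74 CPM in untreated cells, 5.23, 4.72 and 4.81 CPM in IL-1βlow cells, 3.59, 2.86 and 2.45 CPM in CYT cells and 7.54, 4.92 and 5.47 CPM in IL-1βlow + CYT cells. All CYT libraries were below all others, while the remaining 3 groups overlapped. The difference of CYT from untreated cells was -0.74 on the log2 scale (SE 0.20, adjusted p = 0.0061) and stayed under the fold minimum. In IL-1βlow + CYT cells Casp6 was higher than under CYT alone by 1.01 (SE 0.20, adjusted p = 8.8e-04), just over the minimum. The value was 0.98 without CYT replicate 2, 0.86 without CYT replicate 3 and 0.78 without IL-1βlow + CYT replicate 1, the highest library, and it was 0.99 with DESeq2 and with RLE size factors and 0.98 without the filter on low counts, each of which ended the call. Against untreated cells the preconditioned and challenged cells gave 0.27 (95% interval -0.14 to 0.69, adjusted p = 0.35).

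Casp8 and Casp9, which encode the initiators at death receptors and at the apoptosome, passed in no comparison. Casp8 was sparse, with 11 to 30 counts per library. It stood at 1.43, 0.651 and 1.22 CPM in untreated cells, 0.564, 1.84 and 0.987 CPM in IL-1βlow cells, 1.03, 0.816 and 0.920 CPM in CYT cells and 0.912, 0.945 and 0.951 CPM in IL-1βlow + CYT cells. All 4 groups overlapped with each other, and the challenged libraries lay inside the range of the untreated ones. The log2 difference of Casp8 was -0.25 for CYT against untreated cells (interval -1.12 to 0.62) and 0.02 for IL-1βlow + CYT against CYT cells (interval -0.87 to 0.91), so a change of less than about this size was not detectable at this depth. Casp9 was better counted and stood at 14.0, 13.4 and 13.4 CPM in untreated cells, 15.1, 15.0 and 13.1 CPM in IL-1βlow cells, 12.1, 13.3 and 10.3 CPM in CYT cells and 13.1, 15.5 and 10.5 CPM in IL-1βlow + CYT cells. Its CYT libraries were below the untreated ones, and otherwise the groups overlapped. The log2 differences of Casp9 were -0.20 for CYT against untreated cells (interval -0.51 to 0.12, adjusted p = 0.26) and 0.14 for IL-1βlow + CYT against CYT cells (interval -0.18 to 0.46, adjusted p = 0.45), and both intervals stay inside the fold minimum of 1. Casp8 overlaps Cflar and Casp9 overlaps Cela2a in GRCr8, where Cflar had 106 to 247 counts and Cela2a 4 to 16 counts per library, so reads in the overlaps could have been assigned to either gene.

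**Figure D2:**
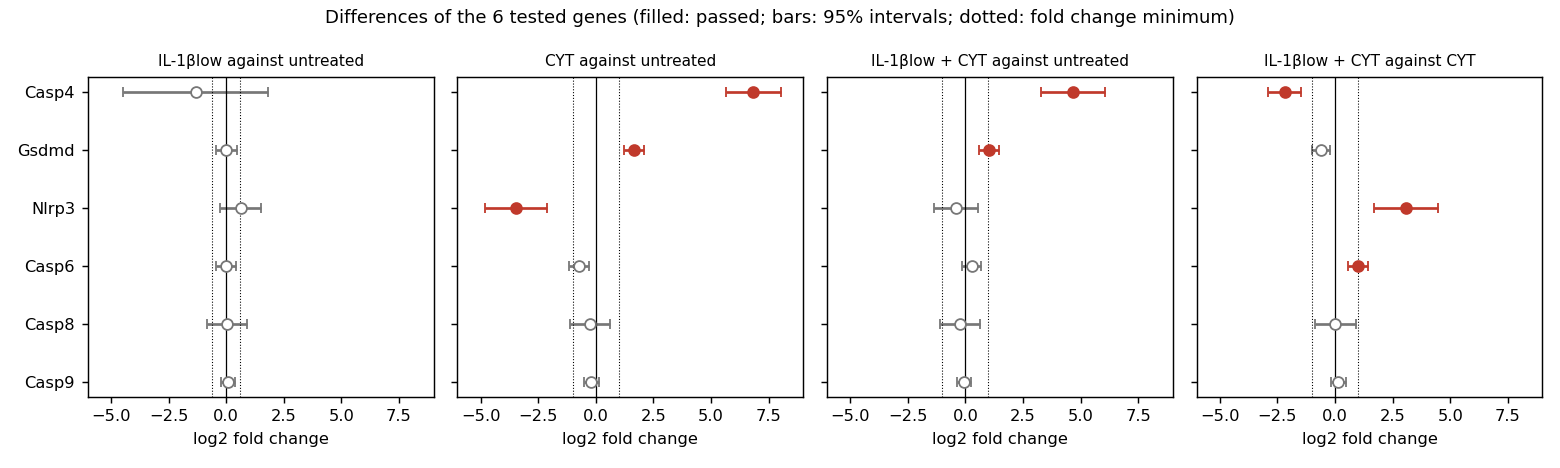
Log2 fold change of the 6 tested members in 4 comparisons, with 95% intervals from edgeR's quasi-likelihood test, filled points for members that passed and dotted lines at the fold change minimum. Casp4, Gsdmd and Nlrp3 are filled under CYT, and the points of Casp8 and Casp9 lie between -0.25 and 0.14 in all panels.

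The contrast of the classes was described by ratios of counts within a library, which need no scaling between libraries. The counts of Casp1, Casp4 and Casp12 together were 0.00301 ± 0.00314 of those of Casp6, Casp8 and Casp9 in untreated cells (mean ± SD, n = 3) and 0.000947 ± 0.00164 in IL-1βlow cells. Under CYT the ratio was 0.487 ± 0.102, and in IL-1βlow + CYT cells it was 0.0908 ± 0.0642. All but 1 of the inflammatory caspase counts in CYT cells were of Casp4. Among the 3 tested inflammatory members the median log2 fold change was 1.65 under CYT, beside -0.25 for the 3 apoptotic members and -0.04 for all tested genes. For IL-1βlow + CYT against CYT cells these medians were -0.61, 0.14 and 0.02. A median over 3 genes that moved in opposite directions describes no shared movement.

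In the fit with group as the only term no member passed for the interaction, where 10.7% of all tested genes passed. The interaction is the difference between the CYT response with and without preconditioning. Of the 6 tested members, 3 had an unadjusted p under 0.05, beside 6695 of the 14324 tested genes, and with DESeq2 0 passed. Nlrp3 had the interaction value farthest from 0, 2.44 on the log2 scale (SE 0.79, adjusted p = 0.027), and it passed when all genes with a count were tested (2.39, adjusted p = 0.0048). Casp6 had 1.01 (SE 0.28, adjusted p = 0.012), which passed with the replicate number as a block (1.01, adjusted p = 0.0031), without CYT replicate 1 (1.14) and without IL-1βlow + CYT replicate 2 (1.13). Gsdmd had -0.62 (95% interval -1.22 to -0.02, adjusted p = 0.098). The value of Casp4, -0.84 with SE 3.02, carries little information because the IL-1βlow libraries held 1 count. Casp9 had 0.06 (interval -0.39 to 0.50), and Casp8 had 0.00 (interval -1.16 to 1.16).

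Other genes of these pathways were taken from 7 lists of related genes, of which 49 tested genes are reported. Under IL-1βlow alone 0 of the 49 passed, and 9 had an unadjusted p under 0.05, beside 1982 of the 14324 tested genes. In this comparison 1 inflammasome sensor or adaptor gene passed with DESeq2, with exactTest and in some other alternatives. Under CYT 12 of the 49 passed, beside 21.6% of all tested genes (10.0% higher and 11.6% lower). Between the challenged groups 5 of the 49 passed, beside 12.5% of all tested genes (6.54% higher and 5.92% lower). The counts of single lists are to be read beside these shares. Their medians are to be read beside -0.04 for all genes under CYT and 0.02 between the challenged groups. Among other caspase genes Casp2, an initiator with roles in the response to DNA damage, stood at 61.6, 53.6 and 57.1 CPM in untreated cells, 56.7, 59.4 and 63.1 CPM in IL-1βlow cells, 44.0, 36.3 and 46.3 CPM in CYT cells and 57.1, 55.6 and 63.9 CPM in IL-1βlow + CYT cells. All CYT libraries lay below all others, and the other 3 groups overlapped. Casp2 had -0.44 under CYT (SE 0.10, adjusted p = 0.0018) and 0.48 between the challenged groups (SE 0.10, adjusted p = 0.0014), both under the fold minimum. Casp14 had 1 count in all.

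Of 13 inflammasome sensors and adaptors, 5 were tested, and 1 fell and 0 rose under CYT, with a median of -0.39, or 2 passed without CYT replicate 1, without untreated replicate 3 or without the filter, while 1 was higher with preconditioning than under CYT alone, with a median of 0.29. The adaptor gene Pycard had 1.78 ± 0.29 CPM in untreated cells, 1.48 ± 0.49 CPM in IL-1βlow cells, 3.42 ± 0.58 CPM in CYT cells and 2.04 ± 0.34 CPM in IL-1βlow + CYT cells. Its log2 difference under CYT was 0.95 (SE 0.26, adjusted p = 0.0060), under the fold minimum, and -0.74 between the challenged groups (adjusted p = 0.026). Txnip, whose product can bind Nlrp3, fell under CYT by 2.43 (SE 0.15, adjusted p = 4.6e-09), from 169.7 ± 8.94 to 31.5 ± 3.12 CPM. In IL-1βlow cells it stood at 258.8 ± 22.5 CPM, higher than in untreated cells by 0.61 (SE 0.13, adjusted p = 0.040), which did not pass. With preconditioning Txnip was higher than under CYT alone by 2.80 (SE 0.15, adjusted p = 1.0e-08), at 219 ± 49.5 CPM. Nlrp3 and Txnip were thus the sensor-side genes that passed in both of these comparisons, lower in CYT cells than in untreated and in IL-1βlow + CYT cells.

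Of 7 outputs of inflammasomes and lytic death, 5 were tested, and 1 rose and 3 fell under CYT, with a median of -1.13. Those that fell were Gsdma, Gsdme and Hmgb1, the last 2 named after their values were seen, and Hmgb1 had -0.94 without untreated replicate 1, which ended its call. Between the challenged groups 0 passed with edgeR, 1 with DESeq2, 2 without CYT replicate 1, CYT replicate 3 or IL-1βlow + CYT replicate 2, and 1 without IL-1βlow + CYT replicate 1. Between these groups 4 of the 5 had an unadjusted p under 0.05, beside 8120 of the 14324 tested genes. Gsdma, another gasdermin gene, fell by 2.63 (SE 0.28, adjusted p = 1.5e-06), from 24.2 ± 8.32 to 3.92 ± 0.90 CPM, where Gsdmd rose. The ratio of Gsdmd to Gsdma counts was 0.143 ± 0.07 in untreated, 0.118 ± 0.048 in IL-1βlow, 2.52 ± 0.227 in CYT and 0.883 ± 0.128 in IL-1βlow + CYT libraries. Ninj1, whose product ruptures the plasma membrane late in lytic death, rose by 1.34 (SE 0.11, adjusted p = 1.7e-07) and had -0.99 between the challenged groups, just under the minimum. Il1b was not tested. It had 0 counts in all 6 unchallenged libraries, 2, 12 and 12 counts under CYT and 2, 3 and 3 counts in IL-1βlow + CYT cells. With 3 counts over the untreated group as the limit, its CYT level was 7.98-fold that limit, leaving out the error of the 26 CYT counts. The pooled CYT counts were 3.15 times those with preconditioning (exact interval 1.38 to 8.04, counting error only). The CYT library with 2 counts (0.109 CPM) lay below every IL-1βlow + CYT library (0.122 to 0.178 CPM), so these groups overlapped. Il18 had -0.79 under CYT (95% interval -2.02 to 0.44, adjusted p = 0.24) and 0.16 between the challenged groups (interval -1.14 to 1.46).

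**Figure D3:**
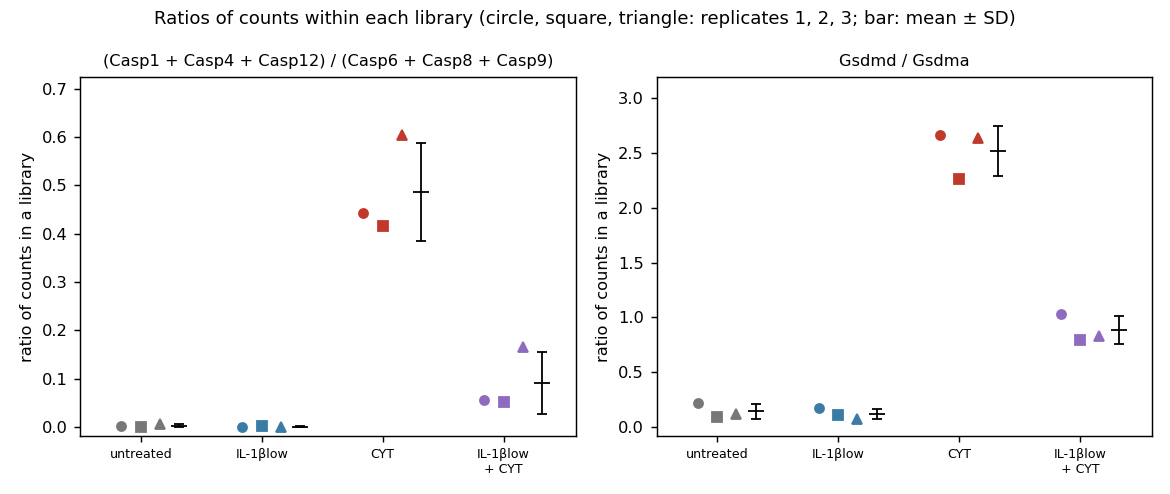
Ratios of counts within each library for the inflammatory over the apoptotic caspases and for Gsdmd over Gsdma, on linear axes from 0, with the mean ± SD of 3 libraries. In both panels the CYT libraries (0.416 to 0.603 and 2.26 to 2.66) lie above every other library.

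Around Casp8 and Casp9, 12 of 15 listed genes of the apoptosome, the death-receptor complex and related steps were tested, not all of them upstream of these initiators. Of these 4 rose and 0 fell under CYT, beside 10.0% and 11.6% of all tested genes, with a median of 0.29. With preconditioning 2 were lower than under CYT alone, beside 5.92% of all tested genes, with a median of -0.21. The risers were Fas, Bid, Pidd1 and Bax, the last named after its values were seen. The death receptor gene Fas rose by 3.48 (SE 0.16, adjusted p = 4.3e-10), from 3.27 ± 0.11 to 36.6 ± 7.57 CPM. Bid, a target of caspase-8 that carries the signal to mitochondria, rose by 2.16 (SE 0.11, adjusted p = 1.3e-09), from 16.2 ± 0.11 to 72.4 ± 8.79 CPM. With preconditioning Bid was lower than under CYT alone by -1.11 (SE 0.11, adjusted p = 1.9e-06) and so was Pidd1, which scaffolds caspase-2 activation, by -1.09 (SE 0.15, adjusted p = 4.6e-05), or by -0.997 without CYT replicate 2, which ended the call of Pidd1. Fas had -0.94 there, under the minimum. Pidd1 rose under CYT by 1.05, but had 0.96 without CYT replicate 2, 0.99 without CYT replicate 3 and 0.99 without untreated replicate 1. The direct partners of the initiators stayed under the fold minimum, with -0.07 for Fadd, the adaptor of caspase-8 (adjusted p = 0.72), -0.50 for Apaf1, the scaffold of caspase-9 (adjusted p = 0.0025), and -0.65 for Cycs, the cytochrome c gene (adjusted p = 0.0033).

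Of 12 caspase inhibitors and survival genes 1 rose and 1 fell under CYT, with a median of 0.19, and 1 was higher with preconditioning than under CYT alone (2 without CYT replicate 2), with a median of 0.17. Birc3, a ubiquitin ligase of the inhibitor of apoptosis family, rose by 4.82 (SE 0.24, adjusted p = 6.2e-10), from 1.68 ± 0.50 to 47.6 ± 7.18 CPM, and stood at 28.0 ± 4.86 CPM in IL-1βlow + CYT cells. Bcl2, which keeps cytochrome c in mitochondria, fell by 1.24 (SE 0.15, adjusted p = 7.2e-06) and was higher with preconditioning than under CYT alone by 1.25 (SE 0.15, adjusted p = 1.3e-05). Cflar, the decoy partner of caspase-8, had -0.88 (adjusted p = 0.0022), and Xiap, a direct inhibitor of caspase-9, had -0.76 (adjusted p = 0.018). Genes of this list went both ways under the fold minimum. Named after their values were seen, Aven had 0.92 (adjusted p = 4.4e-05) and Bcl2l1 0.85 (adjusted p = 2.7e-06), while Birc5 had -0.83 (adjusted p = 9.7e-06) and Birc6 -0.60 (adjusted p = 5.1e-05). Of 4 antagonists of caspase inhibitors, with a median of 0.68, 1 rose under CYT, Xaf1, by 2.23 (SE 0.22, adjusted p = 8.0e-07). Of 10 genes of proteins that caspases cut in apoptosis 7 had an unadjusted p under 0.05 under CYT, beside 9444 of the 14324 tested genes. With edgeR or DESeq2 0 of the 10 passed, with a median of -0.19. Without CYT replicate 1 or CYT replicate 2 the count was 1, and without untreated replicate 3 it was 2. Lmnb1, a nuclear lamin gene, had -0.99 there, and it was higher with preconditioning by 1.07 (SE 0.09, adjusted p = 5.8e-07), or 0.97 without CYT replicate 3 and 1.00 without IL-1βlow + CYT replicate 1, both of which ended the call.

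**Figure D4:**
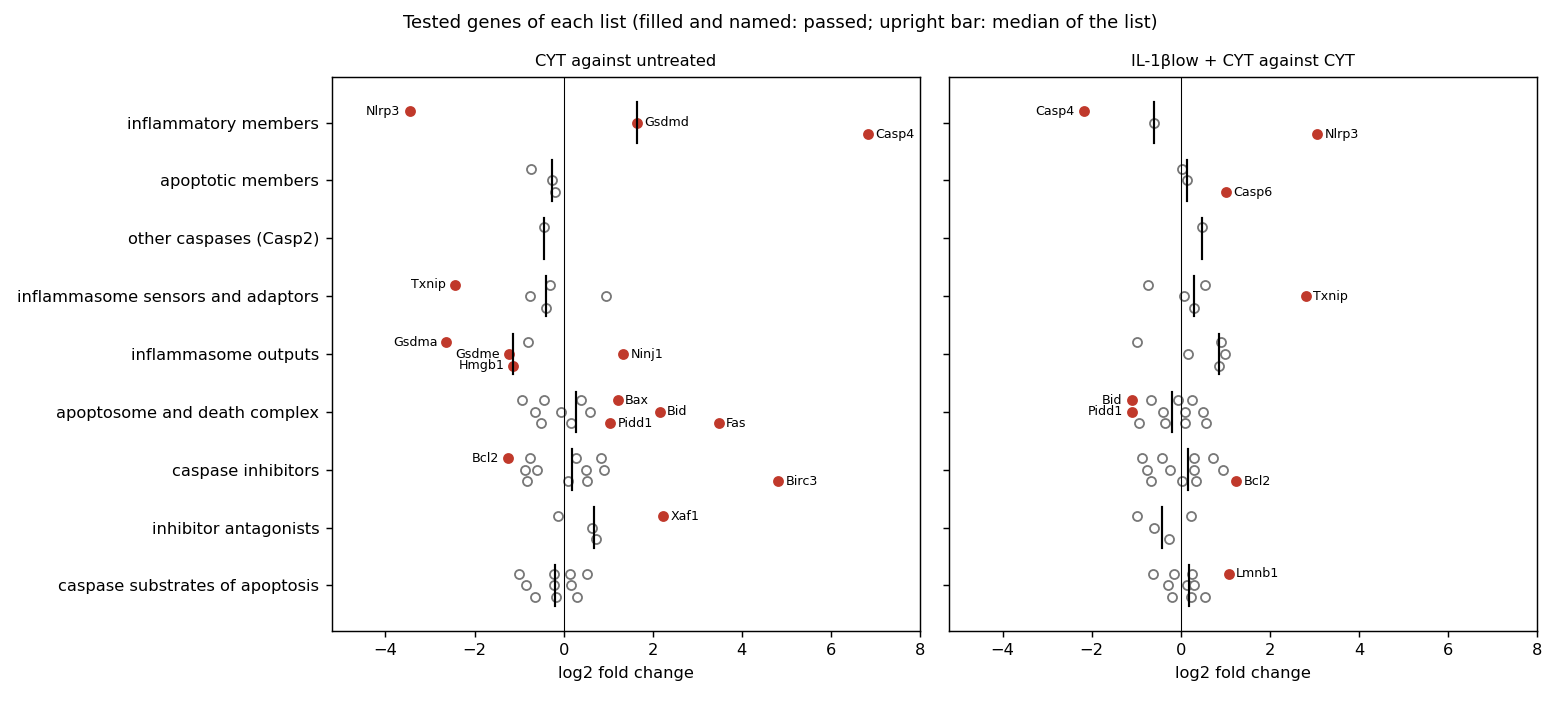
Log2 fold change of the tested genes of each list under CYT (against untreated) and under IL-1βlow + CYT (against CYT alone), with filled and named points for genes that passed and an upright bar at the median of a list. Casp4 (6.83), Birc3 (4.82) and Fas (3.48) lie farthest to the right under CYT, and the apoptotic members stay between -0.74 and -0.20.

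The genes whose log2 CPM was most like that of a member over the 12 libraries were named by Pearson correlation, as a description over libraries that share the same 4 groups. For Casp4 these were Ccl20 (0.99), S100a9 (0.99) and Sod2 (0.99). Ccl20 encodes a chemokine, S100a9 a calcium-binding alarmin and Sod2 the mitochondrial superoxide dismutase. Ccl20 had a mean of 0 CPM in both unchallenged groups, 6.75 CPM under CYT and 1.13 CPM in IL-1βlow + CYT cells, beside 7.54 and 1.68 CPM for Casp4. For Gsdmd they were Grtp1 (0.99), RGD1561157 (0.98) and Scly (0.98), and Gsdmd and Casp4 had 0.95 with each other. For Nlrp3 they were Hjurp (0.96), Apbb3 (0.96) and Tmem53 (0.95), and Nlrp3 had -0.88 with Casp4. For Casp6 they were Fndc4 (0.96), Zbtb8os (0.96) and Pitpna (0.96), and for Casp9 Qdpr (0.95), Kif18b (0.93) and Bckdk (0.93). For Casp8, with few counts, no gene came higher than Snord96a (0.83), followed by Mrpl13 (0.73) and Urad (0.71).

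Markers of other cells differed between the groups, and not in one shared order. The summed level of 8 other islet and stromal markers was 189 to 371 CPM in untreated, 162 to 265 CPM in IL-1βlow, 28.3 to 68.6 CPM in CYT and 83.6 to 158 CPM in IL-1βlow + CYT libraries, and nearly all of it was the glucagon gene Gcg, at 265 ± 92.6, 210 ± 52.4, 37.3 ± 22.4 and 101 ± 43.5 CPM in these groups. The somatostatin gene Sst had at most 3 counts. Other markers of this list were ordered differently from Gcg, as the endothelial gene Vwf had 4.40 ± 0.81 CPM in untreated, 4.11 ± 0.74 CPM in CYT and 7.22 ± 1.37 CPM in IL-1βlow + CYT cells, and the collagen gene Col1a1 had 0.158 ± 0.034, 0.567 ± 0.137 and 0.436 ± 0.184 CPM. The summed level of the 7 myeloid and lymphoid markers was 1.13 to 1.72 CPM in untreated, 0.923 to 1.23 CPM in IL-1βlow, 2.33 to 3.64 CPM in CYT and 4.50 to 5.77 CPM in IL-1βlow + CYT libraries. It was highest in IL-1βlow + CYT libraries. Of these markers 3 were tested. Adgre1, a macrophage marker, had 0.019 ± 0.033 CPM in untreated and 0 CPM in IL-1βlow cells. It reached 1.35 ± 0.57 CPM under CYT and 2.79 ± 0.61 CPM in IL-1βlow + CYT cells. Its test is not given, as it exceeded 1 CPM only in challenged libraries. Cd68 had 0.705 ± 0.397, 0.585 ± 0.357, 1.08 ± 0.180 and 0.799 ± 0.244 CPM in untreated, IL-1βlow, CYT and IL-1βlow + CYT cells. Csf1r, given further below, went down under CYT, from 0.630 ± 0.122 CPM in untreated to 0.166 ± 0.111 CPM in CYT cells. In IL-1βlow + CYT cells Csf1r stood at 1.43 ± 0.173 CPM. The pan-leukocyte marker Ptprc and the myeloid marker Itgam had 0 counts in every library. The part of other cells in the levels of Casp4, Gsdmd and Nlrp3 was not tested.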

How the data were processed

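Bulk RNA-seq was performed on 12 INS-1E libraries. Libraries were made by the authors with a TruSeq kit. After FastQC and trimming in rfastp, reads were mapped by Rsubread onto mRatBN7.2 and assigned to genes by featureCounts. The deposited table gives raw counts (whole numbers) for each gene symbol, and all 12 columns were matched to samples by name. The strand setting and the treatment of reads with several matches are not given in the sources used here.

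Counts were analysed in R 4.3.3 with edgeR 4.0.16. The 14324 genes that exceeded 1 CPM in 2 or more libraries were kept, TMM factors were calculated, and all 12 libraries entered one quasi-likelihood fit (glmQLFit, glmQLFTest) with group as the only term. Pairs of groups and the interaction were tested as contrasts, with Benjamini-Hochberg adjustment over the genes tested. Calls required an adjusted p under 0.01 together with a log2 fold change over 0.6 in size (IL-1βlow against untreated) or over 1 (elsewhere), the thresholds of the study, which used exactTest. Scripts were tested on simulated data. Exact intervals of count ratios are conditional binomial intervals at 95%. An exact permutation test of 3 against 3 libraries cannot go below p = 0.1 and was not used. Libraries of the same group differed by more than counting noise (a chi-square of at least 7.08 times its degrees of freedom), so each was counted as 1 replicate. Libraries with the same replicate number deviated together between CYT and IL-1βlow + CYT (correlations 0.116, 0.475 and 0.453), IL-1βlow and CYT (0.131, 0.446 and 0.411) and IL-1βlow and IL-1βlow + CYT (0.179, 0.469 and 0.52), which was taken as pairing of these 3 groups. The main fit does not include this pairing, so its SEs, intervals and p-values leave it out. With the replicate number as a block, Casp6 passed for the interaction. Untreated libraries, which enter the interaction too, did not deviate with the others in every pair (from -0.188 to 0.181).

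The genes named are the 8 members, central genes of the pathways (Casp2, Pycard, Il1b, Il18, Apaf1, Cycs, Fadd, Bid, Cflar, Xiap, Birc3, Txnip), up to 2 genes per list with the largest change among those that passed in CYT against untreated or IL-1βlow + CYT against CYT cells, and the 3 genes most correlated with each tested member. Some genes of these lists are not reported here. The members and lists were chosen with earlier results of these data known. The alternatives were RLE size factors, no filter on low counts, DESeq2 1.42.0, exactTest, a fit of the compared groups alone, the replicate number as a block, a looser call (adjusted p under 0.05 with no minimum fold), and leaving out each library. Promoters and neighbours came from RefSeq tables of GRCr8. Coordinates of mRatBN7.2 were not used here.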

Additional observations from a re-analysis of the deposited data

Results flagged for a closer look

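For 10 of the 49 tested genes around the members the response to CYT differed with preconditioning, beside 10.7% of all tested genes, and for no member did it pass. The test was the interaction term of the edgeR quasi-likelihood fit with group as the only term (Benjamini-Hochberg adjusted). Each of these genes also passed in CYT against untreated cells, whose libraries enter the interaction with the opposite sign. Opposite signs of the CYT response and the interaction were thus partly built in. The interaction is the log2 response to CYT in IL-1βlow cells minus that in unconditioned cells. It was 2.19 for Txnip (adjusted p = 3.5e-06), 1.37 for Hmgb1 (adjusted p = 0.0029), 1.19 for Bcl2 (adjusted p = 6.1e-04) and 1.12 for Gsdme (adjusted p = 0.0013), all of which fell under CYT in unconditioned cells. It was -1.63 for Birc3 (adjusted p = 0.0016), -1.42 for Bid (adjusted p = 1.9e-05) and -1.26 for Xaf1 (adjusted p = 0.0054), genes that rose. It was -1.08 for Pidd1 (adjusted p = 0.0016), -1.04 for Fas (adjusted p = 0.0030) and -1.04 for Ninj1 (adjusted p = 2.3e-04), which also rose. Txnip, Bcl2, Gsdme, Birc3 and Bid passed with each library left out in turn, and the other 5 did not. Hmgb1 had adjusted p-values of 0.012 without IL-1βlow replicate 1 or untreated replicate 1. Xaf1 had adjusted p-values of 0.011 to 0.018 without CYT replicate 2 or 3, IL-1βlow + CYT replicate 2, IL-1βlow replicate 1 or any untreated replicate. Fas was at -0.919 without CYT replicate 3 and -0.98 without IL-1βlow + CYT replicate 3, and Pidd1 was at -0.99 without CYT replicate 2. Ninj1 was at -0.97 without CYT replicate 2, -0.94 without IL-1βlow + CYT replicate 3 and -0.98 without IL-1βlow replicate 2. Why these responses differ was not tested.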

How the results depend on the processing

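The 8 calls of members kept their direction under all 103 alternatives, and in 95 of them they also passed, the exceptions being Casp6 between the challenged groups and Gsdmd in IL-1βlow + CYT against untreated cells, given above. Of 308 alternatives for member values that had not passed, 265 kept the sign and did not pass, though some moved in size (Casp4 for IL-1βlow against untreated, -1.33, had -3.23 to -0.459 with libraries left out), 35 changed sign and 8 passed. With an adjusted p under 0.05 and no fold minimum, 8926 genes passed for CYT against untreated, 7267 for IL-1βlow + CYT against CYT, 3124 for IL-1βlow + CYT against untreated, 193 for IL-1βlow against untreated and 5337 for the interaction, in place of 3096, 1785, 858, 62 and 1530. With libraries left out in turn the counts ran from 2750 to 3192, 1534 to 1939, 748 to 997, 16 to 74 and 1276 to 1707, and the lowest for IL-1βlow against untreated came without untreated replicate 3. IL-1βlow against untreated gave 139 genes with DESeq2, 138 with exactTest, 229 without the filter and 141 with the replicate block. Members that passed for the interaction numbered 2 with the loose threshold, 1 without the filter, 1 with the replicate block and 0 to 1 with libraries left out, and for IL-1βlow + CYT against untreated 1 to 2 with libraries left out. The block changed no other call of a member. In a fit of only the groups compared, Nlrp3 and Casp8 (IL-1βlow + CYT against CYT) and Casp4 (IL-1βlow against untreated) were under the filter and gave no value. Values near 0 changed sign. For IL-1βlow against untreated Casp6 (-0.0026) had 0.011 with DESeq2, 0.0172 without the filter, 0.0109 with RLE factors and -0.0524 to 0.0657 with libraries left out, Gsdmd (0.0069) had -0.00675 with the block and -0.147 to 0.204 with libraries left out, and Casp8 -0.526 to 0.358. For IL-1βlow + CYT against CYT Casp8 (0.0188) had -0.0115 without the filter, -4.25e-06 with RLE factors and -0.0589 to 0.0709 with libraries left out, and Casp9 -0.00702 to 0.273. Casp9 had -0.204 to 0.0752 for IL-1βlow + CYT against untreated. For the interaction Casp8 had -0.0401 with DESeq2, -0.0523 without the filter, -0.0316 with RLE factors and -0.375 to 0.509 with libraries left out, Casp9 had -0.0896 to 0.19, and Casp4 had -1.71 to 1.02, the last without IL-1βlow replicate 2. RLE in place of TMM moved the median of all genes by at most 0.03. The alternatives were applied to pathway genes after the data had been seen: 446 of 469 kept the call and 23 lost it, and 66 of 483 list counts moved by over 1.5 times. The cause of these shifts was not tested. Depth limits Casp12, Casp8, Il1b and the unchallenged levels of Casp4.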

Other observations

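Among the myeloid markers, Csf1r was highest where both treatments were combined. Csf1r, the receptor gene of macrophage colony-stimulating factor, had 0.630 ± 0.122 CPM in untreated, 0.307 ± 0.245 CPM in IL-1βlow, 0.166 ± 0.111 CPM in CYT and 1.43 ± 0.173 CPM in IL-1βlow + CYT cells (mean ± SD, n = 3), and was named after its values were seen. It exceeded 1 CPM only in IL-1βlow + CYT libraries, so its test is not given. Il1a, which encodes the other IL-1 cytokine and is not matured by caspase-1, was not tested and was chosen after its values were seen. It had 0 counts in untreated libraries, 2 counts over the IL-1βlow libraries, 28 over the CYT and 22 over the IL-1βlow + CYT libraries, where Il1b had 26 and 8.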
